A study of Mus musculus with 19 samples.

Results

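The tricarboxylic acid (TCA) cycle and the pyruvate dehydrogenase step that feeds it were followed through 32 nuclear genes of the mouse, out of 26506 genes in the counts table. The list goes by role in the pathway and its rule uses no measured value, although it was drawn up with earlier results of these data known. The genes were found by mapping Ensembl gene identifiers, without version, to symbols. They comprise 20 genes for the enzymes from citrate synthase to malate dehydrogenase, 4 subunits of the pyruvate dehydrogenase complex, its 4 kinases and 2 phosphatases, and the 2 subunits of the mitochondrial pyruvate carrier. All 32 were found in the table, and all 32 passed the low-count filter in kidney, in liver and over all libraries.

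Pyruvate enters mitochondria through the carrier, is turned into acetyl-CoA by the dehydrogenase complex, and is oxidised in the cycle, which delivers electrons to the respiratory chain and carbon skeletons to synthesis. The complex is switched off when its kinases phosphorylate the E1 alpha subunit and switched on again by the phosphatases, so that fed and fasted tissues burn different fuels. Proximal tubules of the kidney run this pathway at a high rate for transport, and hepatocytes draw intermediates from it for glucose, fatty acid and amino acid synthesis.

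RNA was sequenced after poly(A) selection from unsorted kidney and liver of male mice. The knockout (KO) mice were homozygous for loss of macroH2A1.1, which is made by alternative splicing of the macroH2A1 histone gene, after soluble Cre had been given to zygotes to remove a floxed alternative exon, 6b. The wild-type (WT) mice came from the same heterozygous matings, and the line had been backcrossed to C57BL/6J for at least 10 generations. The 4 groups were kidney KO (n = 5), kidney WT (n = 5), liver KO (n = 5) and liver WT (n = 4). Both a standard and a ketogenic diet are mentioned for the colony, and the diet of each mouse, its age and its feeding state were not given in the sources used here. Mice are called here by the numbers in the library titles, which are 13, 14, 15, 16 and 18 for KO mice and 19, 20, 22, 23 and 24 for WT mice, and no liver of mouse 23 was analysed here. Beyond these numbers no label states that libraries are from different animals, and the p-values therefore describe spread among libraries, which may be technical.

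Depth was 25919138 to 35131720 counts per kidney library and 26084473 to 34806035 per liver library. Summed markers of the thick ascending limb reached 2433 to 3657 CPM (counts scaled to library size) in kidney, with no liver above 0.160 CPM. Hepatocyte markers summed to 2447 to 3778 CPM in kidney against 126994 to 162490 CPM in liver. H2afy, the gene of macroH2A1, was counted over its whole length, which does not single out the deleted exon. It lay at 36.0 to 44.3 CPM in KO kidneys and 61.6 to 67.0 CPM in WT kidneys except for the library labelled WT 24, which held 48.8 CPM. In liver it lay at 59.6 to 72.7 CPM in KO mice and 103 to 121 CPM in WT mice, again except for the library labelled WT 24 with 73.8 CPM. Without mouse 24, 0 members were called in KO against WT in either organ or in the difference, as with it. Levels below are CPM after TMM scaling over all 19 libraries, unless they are said to be per kilobase, which is per kilobase of all exons of a gene merged.

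Per kilobase, 1 gene headed the list in both tissues. The cytosolic malate dehydrogenase gene Mdh1 was the most abundant member in all 4 groups, with 375 ± 29.6 CPM per kb in KO kidneys and 387 ± 20.2 CPM per kb in WT kidneys (SD, n = 5 each), and 373 CPM per kb in KO livers and 375 CPM per kb in WT livers. Sdhd, a membrane anchor of succinate dehydrogenase, came next by this length, at 183 CPM per kb in KO kidneys, 192 CPM per kb in WT kidneys, 333 CPM per kb in KO livers and 305 CPM per kb in WT livers. At the low end stood the regulators: the phosphatase gene Pdp1 was the least abundant member of kidney (1.31 CPM per kb in KO, 1.34 CPM per kb in WT), and the kinase gene Pdk3 that of liver (0.181 CPM per kb in KO, 0.164 CPM per kb in WT). With the length of the longest transcript, tried after the values were seen, the first and last places were the same in every group. Mdh1 then stood at 454 CPM per kb in KO kidneys, 468 CPM per kb in WT kidneys, 451 CPM per kb in KO livers and 454 CPM per kb in WT livers. Sdhb, another succinate dehydrogenase subunit, took the second place in kidney, with 217 CPM per kb in each genotype. Mdh1 (chromosome 11, 21556787 to 21572367, minus strand) held 856, 958, 1007, 938 and 1058 CPM in KO kidneys, 1058, 1009, 973, 917 and 1008 CPM in WT kidneys, 861, 815, 1000, 1008 and 1107 CPM in KO livers, and 998, 982, 861 and 1012 CPM in WT livers. The 4 groups overlapped throughout, and its log2 difference of kidney over liver was 0.01 in KO mice and 0.04 in WT mice. With library totals in place of TMM it was 0.94 and 0.93.

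Kidney and liver, which were compared in the KO mice and separately in the WT mice, used the pathway's genes in different proportions. In KO mice 14 members were higher in kidney than in liver and 10 lower (edgeR quasi-likelihood test, adjusted p under 0.05 over 18549 genes), and in WT mice 15 were higher and 8 lower. Among all genes tested, 41.9% were called higher and 32.8% lower in KO mice, and 40.2% higher and 31.7% lower in WT mice. As shares of the 32 members the called counts are 43.8% higher and 31.3% lower in KO mice, and 46.9% higher with the 8 lower ones in WT mice, near those of all genes. In both genotypes, 13 members were called higher and 8 lower, where 37.7% and 29.8% of all genes were. Called in either direction were 24 members in KO mice, against 74.7% of all genes, and 23 in WT mice, against 71.9%. Unadjusted p under 0.05 was reached by 25 members in KO mice (76.2% of all genes) and 23 in WT mice (73.8%). Fitted values were above 0 in 17 members and below 0 in 15 in KO mice, against 55.3% and 44.7% of all genes, and above in 20 and below in 12 in WT mice, against 55.4% and 44.6%. Kidneys lay wholly above livers in 10 members and wholly below in 7 in KO mice (33.5% and 25.4% of all genes), and in 15 and 6 in WT mice (36.3% and 28.3%). Under TMM, 8 of 32 members differed at least 2-fold in WT mice, against 47.8% of all genes, whose log2 values ran from -17.9 to 20.1. This count depends on the scaling. With library totals the median member stood at a log2 difference of 1.06 in WT mice, beside 1.05 for the median gene.

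Directions between tissues depended on the scaling. The TMM factors were 1.31 to 1.39 in kidney and 0.666 to 0.759 in liver, and with library totals in place of TMM the median gene moved to a log2 kidney over liver difference of 1.09 in KO mice and 1.05 in WT mice, against 0.17 with TMM in each. Relative to the median gene, 14 members lay above and 18 below in KO mice, and 16 above and 16 below in WT mice. Of the 24 calls in KO mice and the 23 in WT mice, 12 in each kept their sign and their call under all 20 alternatives. Calls lost on leaving out a mouse are given with each gene. In unsorted tissue, a smaller share of the cells that express a gene and less RNA per cell cannot be told apart. Ratios of transcripts within a library do not depend on the scaling and are given for that reason.

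**Figure D1:**
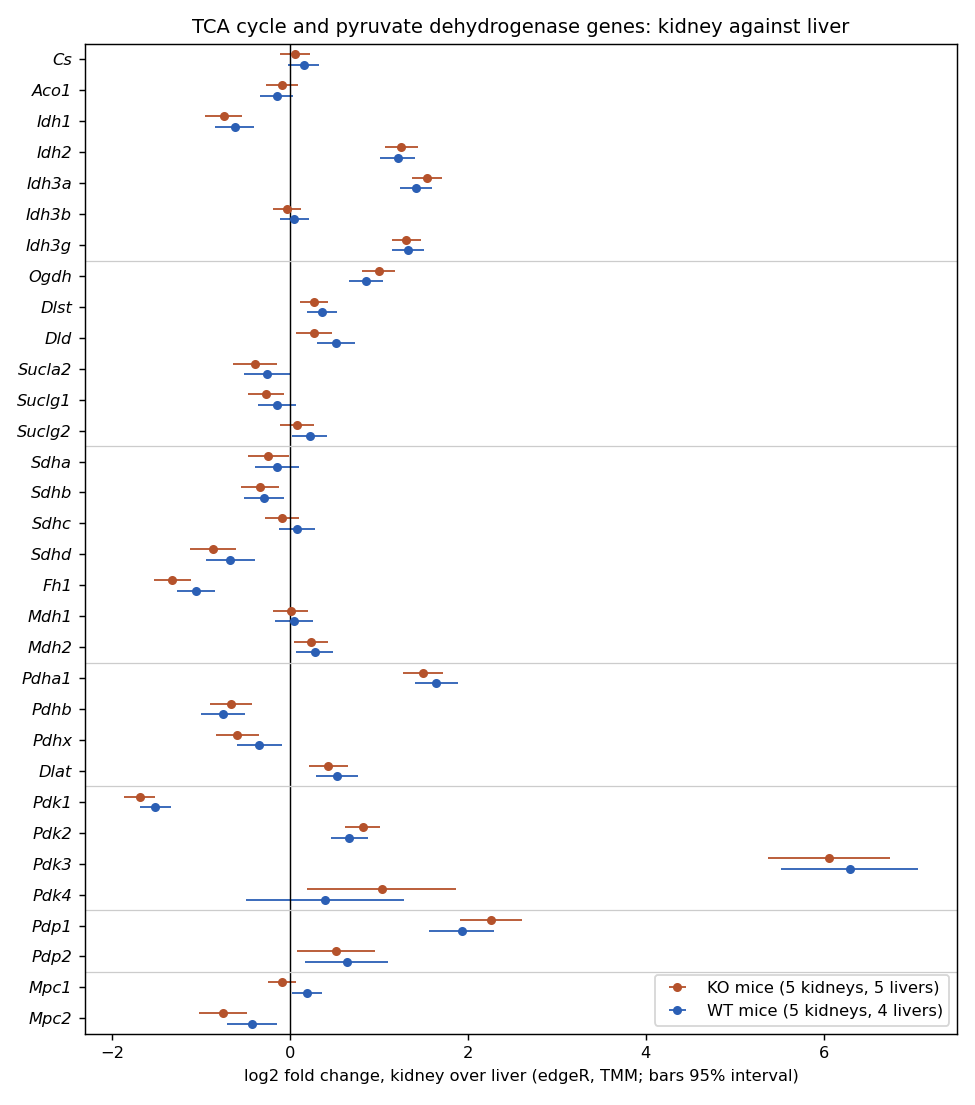
Log2 fold change of kidney over liver (x axis, no unit) for each of the 32 genes (y axis, ordered by role), in KO mice (5 kidneys, 5 livers) and WT mice (5 kidneys, 4 livers), from edgeR with TMM scaling; bars are 95% intervals. Pdk3 stands at 6.06 in KO and 6.29 in WT mice, Pdk1 at -1.69 and -1.51, and Idh3b and Mdh1 close to 0.

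The subunits of the pyruvate dehydrogenase complex diverged. The E1 component is a tetramer of alpha subunits, encoded by Pdha1, and beta subunits, encoded by Pdhb. Pdha1 (chromosome X, 160122209 to 160138413, minus strand, GRCm38) held 249, 205, 197, 239 and 164 CPM in KO kidneys, 211, 216, 230, 222 and 240 CPM in WT kidneys, 90.6, 71.9, 69.3, 67.0 and 74.9 CPM in KO livers and 73.8, 68.1, 78.8 and 65.4 CPM in WT livers. Every kidney was above every liver, by 1.5 on the log2 scale in KO mice (SE 0.11, edgeR adjusted p = 1.54e-11) and 1.65 in WT mice (SE 0.12, adjusted p = 1.37e-11). Pdhb (chromosome 14, 8165996 to 8173025, minus strand) held 129, 132, 149, 135 and 152 CPM in KO kidneys, 136, 132, 122, 124 and 142 CPM in WT kidneys, 196, 162, 220, 260 and 263 CPM in KO livers and 236, 205, 195 and 249 CPM in WT livers. Every kidney was below every liver under TMM, with log2 differences of -0.66 in KO mice (SE 0.11, adjusted p = 1.58e-05) and -0.75 in WT mice (SE 0.12, adjusted p = 6.01e-06), which turned to 0.27 and 0.13 with library totals. The ratio of Pdha1 to Pdhb within a library, which no scaling touches, was 1.11 to 2.00 in KO kidneys, 1.61 to 1.95 in WT kidneys, 0.267 to 0.478 in KO livers and 0.272 to 0.417 in WT livers, per kilobase of exon. The tissues did not overlap, and the ratio was 4.37-fold higher in kidney than in liver in KO mice and 5.26-fold higher in WT mice.

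Exons of Pdha1 share 603 bases, 16.1% of its exon length, with Map3k15 on the other strand, and whether counting used strand is not given in the sources used here. Map3k15 was counted at 16.3 to 27.5 CPM in KO kidneys, 19 to 23.3 CPM in WT kidneys, 0.392 to 0.589 CPM in KO livers and 0.373 to 0.704 CPM in WT livers. These levels are far below those of Pdha1 in each tissue. The part of the shared bases in the Pdha1 counts was not tested. The other subunits differed less: Dlat, the E2 acetyltransferase, was higher in kidney by 0.43 in KO and 0.53 in WT mice, and Pdhx, the E3-binding protein, was lower by 0.59 in KO and 0.34 in WT mice under TMM but higher by 0.34 and 0.54 with library totals. The WT call of Pdhx was lost without mouse 20 (-0.30, edgeR adjusted p = 0.0752). Dld, the E3 dehydrogenase shared with the oxoglutarate complex, was higher by 0.27 in KO and 0.51 in WT mice (each with adjusted p under the threshold), and the KO call was lost without mouse 13 (0.17, adjusted p = 0.123).

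The mitochondrial NAD-dependent isocitrate dehydrogenase showed the same kind of split. It is built of catalytic alpha subunits (Idh3a) with beta (Idh3b) and gamma (Idh3g) partners. Idh3a (chromosome 9, 54586334 to 54604661, plus strand) held 108, 126, 111, 116 and 105 CPM in KO kidneys, 113, 119, 121, 129 and 125 CPM in WT kidneys, 41.5, 35.5, 35.7, 40.9 and 41.2 CPM in KO livers and 43.4, 42.1, 47.9 and 47.8 CPM in WT livers. All kidneys lay above all livers, with log2 differences of 1.54 in KO mice (SE 0.08, edgeR adjusted p = 3.40e-14) and 1.42 in WT mice (SE 0.09, adjusted p = 6.74e-13). Idh3g averaged 187 ± 15.6 CPM in KO kidneys and 75.5 ± 3.6 CPM in KO livers (SD, n = 5 each), and 199 ± 13.8 CPM in WT kidneys (n = 5) and 79.2 ± 4.9 CPM in WT livers (n = 4), a log2 difference of 1.31 in KO and 1.33 in WT mice. Idh3b, in contrast, lay at 224 ± 15 CPM in KO kidneys and 229 ± 9.09 CPM in KO livers. In WT mice it lay at 233 ± 10.9 CPM in kidneys and 225 ± 9.74 CPM in livers. Under TMM it was not called (log2 differences -0.03 in KO and 0.05 in WT mice), and with library totals these were 0.89 and 0.93. The ratio of Idh3a to Idh3b was 2.97-fold higher in kidney than in liver in KO mice and 2.59-fold higher in WT mice, and that of Idh3g to Idh3b 2.53-fold and 2.43-fold higher, without overlap between tissues.

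**Figure D2:**
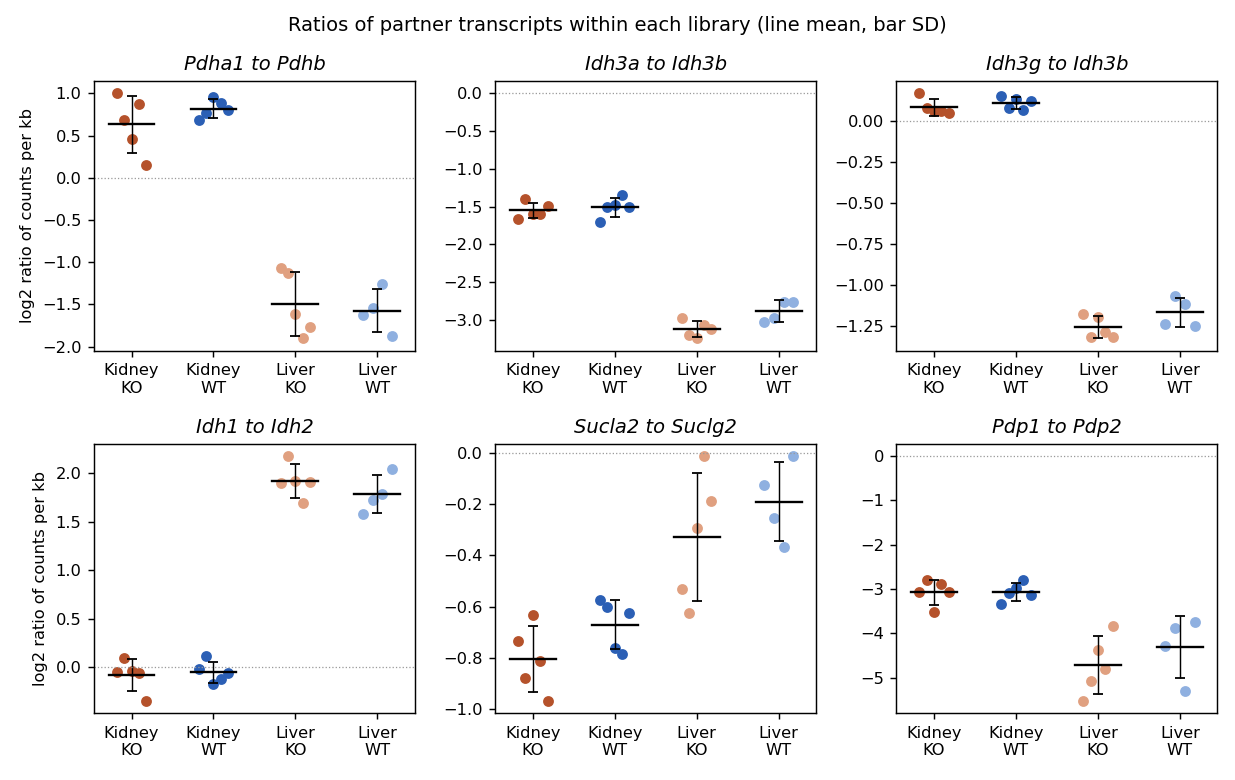
Log2 ratio of counts per kilobase of exon (y axes) between partner transcripts in each library, by group (x axis); points are libraries, lines means and bars SD. Kidneys and livers of the same genotype do not overlap in any of the 6 panels, while KO and WT libraries of a tissue do.

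The isocitrate dehydrogenases that use NADP also differed in their balance. Idh1 encodes the cytosolic and peroxisomal enzyme and Idh2 the mitochondrial one. Idh2 averaged 352 ± 7.49 CPM in KO kidneys and 148 ± 12.8 CPM in KO livers, and 370 ± 22.6 CPM in WT kidneys and 160 ± 20.2 CPM in WT livers. Its log2 difference was 1.25 in KO and 1.21 in WT mice, and no libraries overlapped. Idh1 was at 358 ± 34.0 CPM in KO kidneys and 599 ± 44.6 CPM in KO livers, and at 383 ± 39.3 CPM in WT kidneys and 589 ± 66.5 CPM in WT livers, a log2 difference of -0.74 and -0.62 that turned to 0.18 and 0.27 with library totals. The ratio of Idh1 to Idh2 per kilobase was 0.783 to 1.07 in KO kidneys and 3.23 to 4.53 in KO livers, and 0.884 to 1.08 in WT kidneys and 2.99 to 4.13 in WT livers. Which gene leads in kidney depends on the length used, since with the longest transcript the ratio was 0.652 to 0.889 in KO kidneys and 0.736 to 0.899 in WT kidneys. Idh2 was then ahead in every kidney, while Idh1 still led in liver, by 2.69 to 3.77 in KO and 2.49 to 3.44 in WT mice. The fold between tissues of such a ratio does not depend on which of these lengths is chosen, since the same length was applied in both tissues. Whether the tissues use transcripts of unlike length was not tested. Citrate synthase (Cs) and the cytosolic aconitase Aco1 were not called between tissues in either genotype under TMM. With library totals Cs was higher in kidney by 0.98 in KO and 1.04 in WT mice, and Aco1 by 0.83 and 0.74.

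From oxoglutarate to succinate, the E1 gene of the oxoglutarate complex, Ogdh, was higher in kidney by 1.0 in KO and 0.86 in WT mice, and its E2 partner Dlst by 0.27 and 0.37. The succinyl-CoA ligases share Suclg1 and pair it with Sucla2 in the ATP-forming enzyme or Suclg2 in the GTP-forming one. Sucla2 was at 151 ± 27.5 CPM in KO kidneys and 198 ± 24.4 CPM in KO livers, and at 168 ± 13.8 CPM in WT kidneys and 201 ± 18.4 CPM in WT livers. Suclg2 was at 303 ± 39.3 CPM in KO kidneys and 287 ± 20.3 CPM in KO livers, and at 310 ± 8.95 CPM in WT kidneys and 266 ± 16.2 CPM in WT livers. Their ratio Sucla2 to Suclg2 was lower in kidney, 0.511 to 0.645 in KO kidneys and 0.649 to 0.992 in KO livers, and 0.580 to 0.672 in WT kidneys and 0.775 to 0.991 in WT livers. Kidneys and livers of a genotype did not overlap, although the nearest KO libraries almost met, and the WT kidneys overlapped the KO livers. With the longest transcript the ratio was 0.666 to 0.840 in KO kidneys and 0.756 to 0.876 in WT kidneys. It was then 0.846 to 1.29 in KO livers and 1.01 to 1.29 in WT livers. Which of these genes leads in liver therefore depends on the length used. Sucla2 (-0.39) and Suclg1 (-0.27) were called lower in kidney in KO mice and not in WT mice (-0.26 and -0.15), and Suclg2 was called higher in WT mice (0.22, edgeR adjusted p = 0.0448) and not in KO mice (0.08). The Suclg2 call was lost with a filter of 1 CPM (adjusted p = 0.0527) and without any 1 of the mice 14, 15, 19, 20, 22, 23 and 24, down to 0.17 without mouse 24 (adjusted p = 0.194). The Suclg1 call was lost without mouse 18 (-0.12, adjusted p = 0.183). Whether genotypes differ in this is the difference in KO effect tested below, in which none of the 3 was called.

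Of the 7 genes from succinate to oxaloacetate, 3 were called lower in kidney and 1 higher in each genotype under TMM. Among all genes tested, 32.8% were called lower and 41.9% higher in KO mice, and 31.7% and 40.2% in WT mice. Fh1, the fumarase gene (chromosome 1, 175600374 to 175625635, minus strand), held 146, 147, 148, 147 and 124 CPM in KO kidneys, 166, 151, 153, 143 and 161 CPM in WT kidneys, 387, 299, 343, 350 and 401 CPM in KO livers and 305, 281, 387 and 316 CPM in WT livers. Every liver was above every kidney, with log2 differences of -1.32 in KO mice (SE 0.10, edgeR adjusted p = 2.78e-11) and -1.06 in WT mice (SE 0.10, adjusted p = 3.20e-09). With library totals Fh1 stayed lower in kidney, by 0.39 in KO and 0.17 in WT mice, and the WT value no longer passed (adjusted p = 0.0951). Sdhd (chromosome 9, 50596357 to 50603812, minus strand) held 203, 221, 248, 213 and 242 CPM in KO kidneys, 263, 245, 212, 217 and 245 CPM in WT kidneys, 319, 336, 430, 419 and 544 CPM in KO livers and 413, 421, 316 and 352 CPM in WT livers. Its groups did not overlap between tissues, and its log2 differences of -0.86 in KO mice (SE 0.13, adjusted p = 1.78e-06) and -0.67 in WT mice (SE 0.13, adjusted p = 9.70e-05) turned to 0.075 and 0.22 with library totals. Sdhb, the iron-sulfur subunit, was lower by 0.33 and 0.29, turning to 0.60 in each genotype, with the WT call lost without mouse 20 (-0.22, adjusted p = 0.132), and Sdha, Sdhc and Mdh1 were not called in either. Mdh2, the mitochondrial malate dehydrogenase, was higher in kidney by 0.24 in KO mice (edgeR adjusted p = 0.0265) and 0.28 in WT mice (adjusted p = 0.0158). The KO call was lost without mouse 14 (0.19, adjusted p = 0.101) or mouse 19, and the WT call without mouse 19, mouse 24 or mice 16 and 24 (0.24, adjusted p = 0.0990).

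The kinases that switch the dehydrogenase complex off included the member with the largest difference between tissues, Pdk3. Pdk3 (chromosome X, 93764607 to 93832201, minus strand) held 37.3, 23, 30.4, 31.7 and 29.5 CPM in KO kidneys, 35.4, 28.4, 33.1, 31.2 and 37.8 CPM in WT kidneys, 0.454, 0, 0.283, 0.453 and 1.13 CPM in KO livers and 0.538, 0.610, 0.209 and 0.320 CPM in WT livers. The livers held few reads, with 11, 0, 7, 10 and 23 counts in KO mice and 13, 13, 5 and 6 counts in WT mice. The fitted difference was 6.06 in KO mice (SE 0.33, edgeR adjusted p = 3.79e-13) and 6.29 in WT mice (SE 0.37, adjusted p = 1.64e-12), with 95% intervals of 41.5-fold to 107-fold and 46.0-fold to 133-fold. Pdk1 (chromosome 2, 71873224 to 71903858, plus strand) showed the opposite order, with 30.1, 29.5, 27.7, 29.5 and 22.7 CPM in KO kidneys, 27.6, 28.2, 27.1, 27.0 and 29.5 CPM in WT kidneys, 90.4, 92.9, 89.9, 83.8 and 93.1 CPM in KO livers and 84.1, 83.2, 73.8 and 76.5 CPM in WT livers. All livers exceeded all kidneys, with log2 differences of -1.69 in KO mice (SE 0.08, adjusted p = 7.51e-15) and -1.51 in WT mice (SE 0.08, adjusted p = 1.47e-13), and the sign held with library totals (-0.77 and -0.62).

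Pdk2, the broadly expressed kinase, was higher in kidney by 0.82 in KO and 0.67 in WT mice. As a share of the 4 kinases summed per kilobase its libraries overlapped between all groups, at 73.9% ± 6.33 in KO kidneys, 74.6% ± 5.05 in WT kidneys, 71.5% ± 1.94 in KO livers (SD, n = 5 each) and 73.3% ± 0.686 in WT livers (n = 4). Beside it, Pdk3 made up 11.1% ± 1.36 in KO kidneys and 0.314% ± 0.317 in KO livers, and 13.1% ± 1.36 in WT kidneys and 0.255% ± 0.102 in WT livers. Pdk1 made up 3.38% ± 0.475 in KO kidneys and 18.7% ± 2.52 in KO livers, and 3.63% ± 0.248 in WT kidneys and 16.1% ± 0.791 in WT livers. The ranges of Pdk1 and of Pdk3 shares did not overlap between tissues, and those of Pdk2 and Pdk4 did. The same held with the longest transcript, where Pdk2 made up 77.5% in KO kidneys, 77.7% in WT kidneys, 72.6% in KO livers and 74.7% in WT livers.

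**Figure D3:**
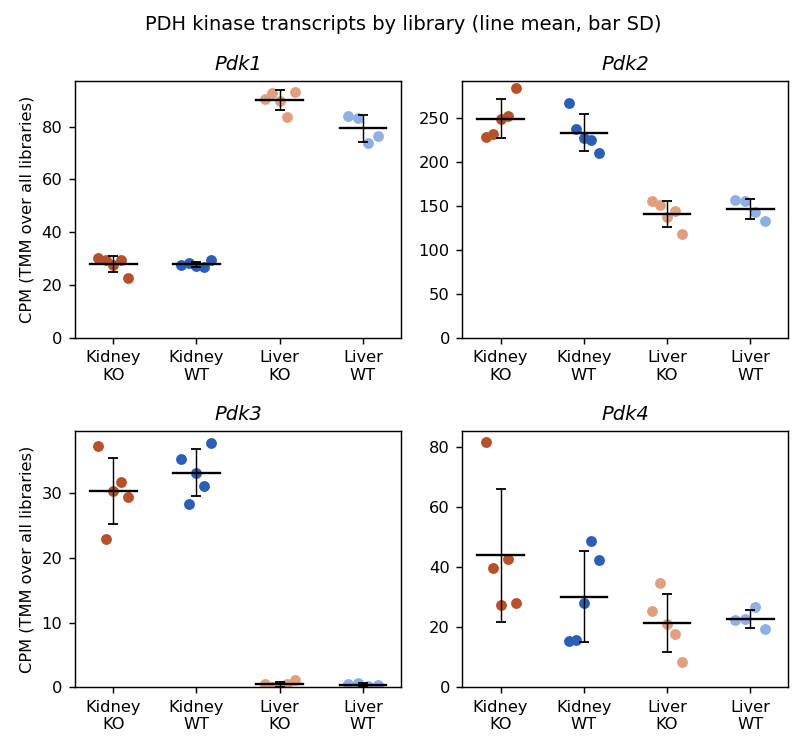
Levels of the 4 kinase transcripts (y axes, CPM after TMM over all libraries) by group (x axis); points are libraries, lines means and bars SD. Pdk3 lies at 23 to 37.8 CPM in kidneys and at most 1.13 CPM in livers, Pdk1 is higher in livers, and Pdk4 spreads from 15.4 to 81.9 CPM among kidneys.

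Pdk4 is the kinase that fasting and fatty acids induce in many tissues. It lies on chromosome 6, 5483351 to 5496309, minus strand, and held 81.9, 39.6, 27.5, 42.8 and 28.2 CPM in KO kidneys, 15.4, 15.9, 28.3, 48.7 and 42.4 CPM in WT kidneys, 25.3, 34.7, 21.2, 17.9 and 8.32 CPM in KO livers and 22.5, 22.9, 26.8 and 19.5 CPM in WT livers. KO and WT overlapped in each organ, and kidney and liver overlapped in each genotype. Kidney exceeded liver by 1.03 in KO mice (SE 0.40, edgeR adjusted p = 0.0259) and by 0.39 in WT mice (SE 0.42, adjusted p = 0.410). The KO call rested on the KO mouse 13, without which the difference was 0.75 (adjusted p = 0.115), and it was also lost without mouse 16 (0.99, adjusted p = 0.0741) and in limma voom. With library totals the WT difference passed too, at 1.28 (adjusted p = 0.0127).

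The promoters of the kinases that carry the tissue split are shown with that of Pdk4, as RefSeq gives them on GRCm38.p6 from 250 bases before to 50 after the transcription start. They lie at chrX:93832101-93832400 (minus strand, Pdk3), chr2:71872974-71873273 (plus strand, the upstream of 2 Pdk1 starts) and chr6:5496229-5496528 (minus strand, Pdk4). Capitals mark a GC box, GGGCGG or CCGCCC.
Pdk3: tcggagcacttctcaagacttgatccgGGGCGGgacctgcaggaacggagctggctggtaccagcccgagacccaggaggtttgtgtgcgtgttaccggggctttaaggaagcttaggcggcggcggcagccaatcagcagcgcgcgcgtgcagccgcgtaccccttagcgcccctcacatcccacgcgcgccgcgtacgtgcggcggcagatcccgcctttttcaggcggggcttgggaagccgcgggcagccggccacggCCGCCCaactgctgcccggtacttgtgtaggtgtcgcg
Pdk1: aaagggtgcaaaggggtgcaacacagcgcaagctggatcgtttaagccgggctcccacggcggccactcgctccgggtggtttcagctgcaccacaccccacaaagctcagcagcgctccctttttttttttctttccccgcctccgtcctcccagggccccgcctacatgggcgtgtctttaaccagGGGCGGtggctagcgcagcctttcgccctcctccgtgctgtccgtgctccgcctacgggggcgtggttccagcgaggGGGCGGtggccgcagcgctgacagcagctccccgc
Pdk4: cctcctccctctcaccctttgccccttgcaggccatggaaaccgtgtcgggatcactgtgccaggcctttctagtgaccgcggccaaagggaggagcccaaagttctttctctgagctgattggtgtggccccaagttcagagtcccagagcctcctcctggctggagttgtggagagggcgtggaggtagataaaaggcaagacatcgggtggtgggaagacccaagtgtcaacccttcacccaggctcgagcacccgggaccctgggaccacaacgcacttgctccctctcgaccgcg
The Pdk3 window holds 35 CpG dinucleotides and the Pdk1 window shown 25, each with 2 GC boxes, while the Pdk4 window holds 12 and no GC box. The window of the downstream Pdk1 start, not shown, holds 2 CpG dinucleotides and no GC box. The median was 22 over 38 windows of the 29 members with an entry, and 7 over 32851 windows of all genes. Idh3a, Sdhc and Pdp1 had no entry. GC boxes were found in 21 of these 29 members, and in 38.2% of the 27025 genes with a window, some of which have several windows. Searched on both strands, AGGTCA, the core bound by many nuclear receptors, was found in 7 members (18.1% of all genes), the E-box CACGTG in 3 (8.09%) and the longer TCAAGGTCA, which holds AGGTCA and is bound by estrogen-related receptors, in Sdhd alone (0.466%). The FOXO element TGTTTAC (4.05% of all genes) was in none of them. These are descriptions of the letters in 300-base windows and not of binding.

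The phosphatases, which undo the kinases' work, were both higher in kidney. Pdp1 (chromosome 4, 11958184 to 11966452, minus strand), the calcium-stimulated enzyme, held 5.61, 6.54, 4.99, 6.14 and 6.13 CPM in KO kidneys, 5.55, 6.13, 6.63, 6.64 and 5.27 CPM in WT kidneys, 1.28, 0.940, 1.21, 1.13 and 1.57 CPM in KO livers and 1.45, 1.88, 1.21 and 1.81 CPM in WT livers. No kidney overlapped a liver, and the difference was 2.26 in KO mice (SE 0.17, edgeR adjusted p = 2.20e-11) and 1.93 in WT mice (SE 0.18, adjusted p = 1.13e-09). Pdp2, the insulin-responsive enzyme, was at 62.6 ± 6.59 CPM in KO kidneys and 43.7 ± 18.8 CPM in KO livers, and at 64.1 ± 5.25 CPM in WT kidneys and 41.1 ± 13.6 CPM in WT livers. Its differences of 0.52 and 0.64 passed (adjusted p = 0.0308 and 0.0150) with overlapping libraries, and each was lost on leaving out any of several mice, down to 0.36 without mouse 15 in KO mice (adjusted p = 0.161) and 0.52 without mouse 19 in WT mice (adjusted p = 0.0918). Of the carrier subunits, Mpc2 was lower in kidney by 0.75 in KO and 0.43 in WT mice under TMM and higher by 0.19 and 0.46 with library totals. Mpc1 was not called in KO mice (-0.09) and passed in WT mice (0.19, adjusted p = 0.0367). That call was lost without any 1 of the mice 15, 19, 20, 22, 23 and 24, down to 0.12 without mouse 19 (adjusted p = 0.247).

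The KO and WT groups were compared within each organ, to ask whether loss of macroH2A1.1 went with other levels of these genes. In kidney, of the 32 members, 0 passed in KO against WT kidneys (edgeR adjusted p under 0.05), where 1 of 17269 genes, 0.00579%, did, and 0 had an unadjusted p under 0.05, where 2.95% of all genes did. DESeq2 and limma voom with sample weights called 0 members as well, and in no member were the libraries of the genotypes apart (0.261% of all genes had KO wholly above WT and 0.284% wholly below). For 31 of the 32 genes the 95% interval of the fold lay within 1.5-fold either way, from 0.757-fold at the lower end of Sucla2 to 1.23-fold at the upper end of Pdk2. Fitted values were below 0 in 26 members and above 0 in 6 (Ogdh, Sdhb, Pdhb, Pdk1, Pdk2 and Pdk4), with a median of -0.06, while 47.8% of all genes were below 0 and 52.2% above, with a median of 0.01. The count of 26 was 22 with library totals and 24 to 28 under the other alternatives. The 10 proximal tubule markers summed to 6724 to 7881 CPM in KO kidneys and 7704 to 8424 CPM in WT kidneys, with 6 of 10 lower, 0 of 10 called and none at 0 in any group of kidneys, and their part in the members' values was not tested.

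The members with the smallest p in kidney were Mpc1, Fh1 and Suclg1. Mpc1 (chromosome 17, 8282904 to 8297661, plus strand) held 86.9, 97.1, 85.6, 94.0 and 77.9 CPM in KO kidneys and 97.7, 94.8, 94.9, 97.6 and 95.3 CPM in WT kidneys. Of the KO libraries, 4 were below all WT libraries and that of mouse 14 lay within the WT range, and the log2 fold change was -0.12 (SE 0.07, unadjusted p = 0.140, edgeR adjusted p = 0.999). Fh1, with the values given above, differed by -0.11 (SE 0.08, unadjusted p = 0.171), and the KO and WT ranges overlapped at 143 to 148 CPM. Suclg1 (chromosome 6, 73248382 to 73276911, plus strand) held 240, 255, 250, 244 and 193 CPM in KO kidneys and 274, 253, 248, 252 and 256 CPM in WT kidneys, with a fitted difference of -0.11 (SE 0.08, unadjusted p = 0.190). The groups overlapped, and the KO mouse 18 lay well below the other 9 kidneys.

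Pdk4 had the largest fitted kidney value, 0.56 (SE 0.43, edgeR adjusted p = 0.999), with an interval from 0.749-fold to 2.89-fold that leaves its direction undetermined at this spread. Leaving out any mouse moved it between 0.20 and 0.80 together with the other alternatives, always without a call. Fat beside the kidney also expresses Pdk4, and the 6 adipocyte and brown fat markers summed to 85.8, 247, 260, 344 and 193 CPM in KO kidneys and 119, 287, 147, 318 and 175 CPM in WT kidneys. The KO mouse 13, with the highest Pdk4 of all kidneys, had the lowest fat marker sum, and the part of fat in the spread of Pdk4 was not tested.

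**Figure D4:**
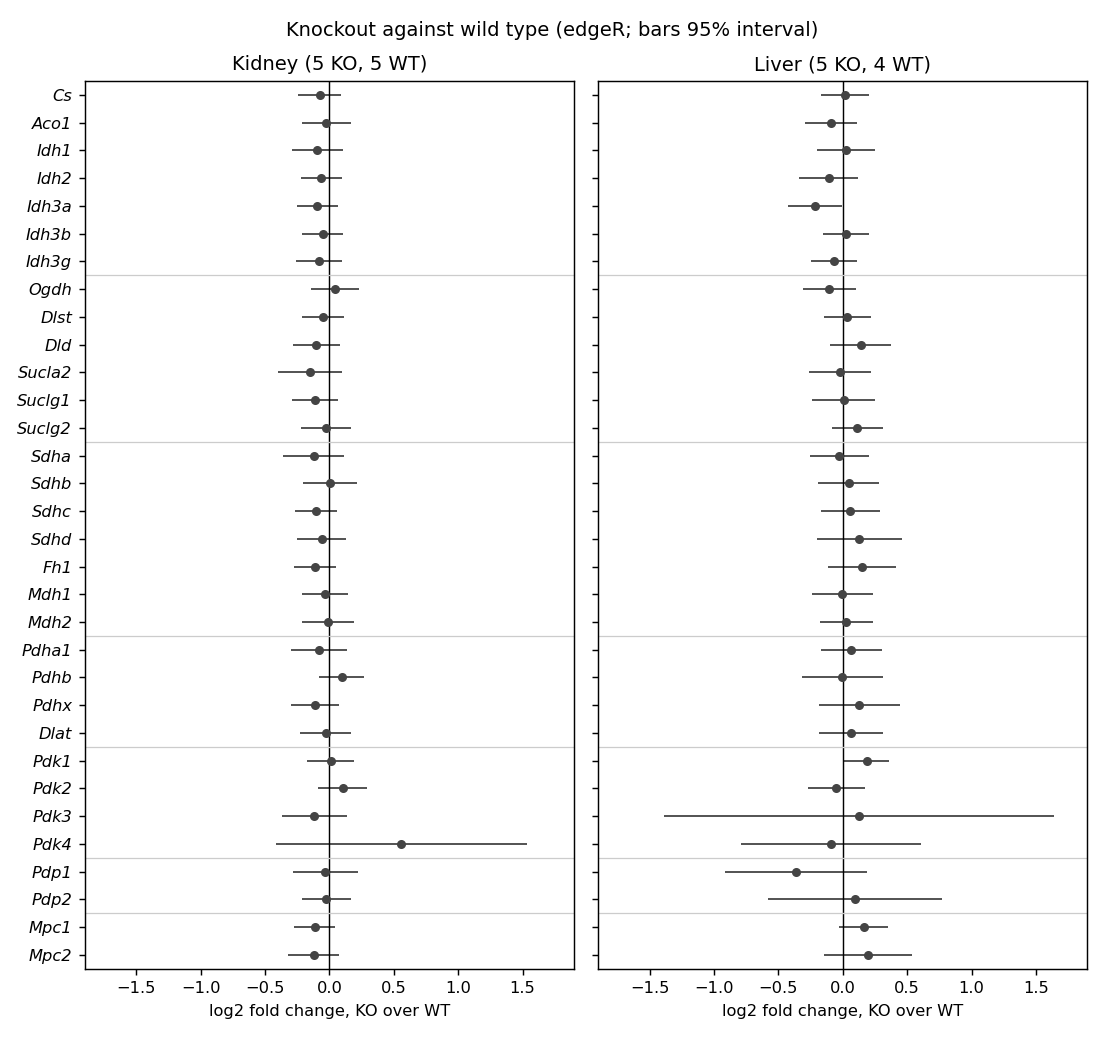
Log2 fold change of KO over WT (x axes) for the 32 genes (y axis, ordered by role) in kidney (5 KO, 5 WT) and in liver (5 KO, 4 WT), from edgeR; bars are 95% intervals. Most intervals lie within 0.5 of 0 on the log2 scale, those of Pdk4 in kidney and of Pdk3, Pdk4, Pdp1 and Pdp2 in liver are wider.

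In liver 0 of 32 members passed as well, as did 0 of 14591 genes (0.0%). DESeq2 and limma voom called 0 members. An unadjusted p under 0.05 was found for 2 members, Pdk1 and Idh3a, where 4.17% of all genes had one. Here 20 members were above 0 and 12 below (51.3% and 48.7% of all genes), with a median of 0.03 beside 0.00 for all genes. Leaving out WT mouse 22 turned the split to 14 above and 18 below, and the count below was 8 to 14 under the other alternatives. Intervals lay within 1.5-fold for 28 of 32 genes, the exceptions being Pdk3, Pdk4, Pdp1 and Pdp2, and the widest, that of Pdk3, ran from 0.383-fold to 3.11-fold.

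Pdk1, with 83.8 to 93.1 CPM in KO livers and 73.8 to 84.1 CPM in WT livers as listed above, was higher by 0.19 (SE 0.08, unadjusted p = 0.0404, edgeR adjusted p = 0.9998), and 1 KO library fell below the highest WT library. Relative to Pdk2 in the same library, a ratio chosen after values were seen, Pdk1 was at 0.236 to 0.321 in KO livers and 0.210 to 0.235 in WT livers. The nearest libraries all but met, and this was the 1 of 12 ratios without overlap between genotypes in liver, against 0 of 12 in kidney. Idh3a was lower by 0.21 (SE 0.10, unadjusted p = 0.0469, adjusted p = 0.9998), and its KO livers, at 35.5 to 41.5 CPM, lay below its WT livers, at 42.1 to 47.9 CPM. Mpc1 held 90.6, 91.7, 90.7, 90.3 and 106 CPM in KO livers and 77.9, 86.7, 85.6 and 86.2 CPM in WT livers, a difference of 0.16 (SE 0.09, unadjusted p = 0.0873). Its KO libraries were all above the WT libraries. Among all genes, 0.747% had KO livers entirely above WT livers and 0.87% entirely below, and 1 member did in each direction. Exons of Mpc1 share 480 bases, 23.1% of its exon length, with the antisense transcript 4930506C21Rik, which was counted at no more than 2.74 CPM in any library. The 7 skeletal muscle markers summed to 1.52 to 19.6 CPM in KO livers and 2.01 to 3.41 CPM in WT livers, all 5 that were tested were above 0 with 0 called, Mb was at 0 in the WT livers, and the part of these cells' RNA in the members' values was not tested.

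The difference between the tissues in the KO effect was tested directly, and 0 of 32 members and 0 of 18549 genes (0.0%) passed. DESeq2 and limma voom called 0 members here too. An unadjusted p under 0.05 was found for 1 member, against 4.12% of all genes. This was Mpc1, whose KO effect in kidney minus that in liver was -0.28 on the log2 scale (SE 0.11, unadjusted p = 0.0189, edgeR adjusted p = 0.9999). Fh1 followed with -0.26 (SE 0.14, unadjusted p = 0.0783) and Dld with -0.24 (SE 0.14, unadjusted p = 0.0969). Dld (chromosome 12, 31331277 to 31351453, minus strand) held 236, 195, 218, 215 and 187 CPM in KO kidneys, 241, 223, 220, 205 and 246 CPM in WT kidneys, 149, 153, 186, 176 and 209 CPM in KO livers and 173, 161, 149 and 153 CPM in WT livers. Genotypes overlapped in each tissue. In 24 members the fitted difference was below 0 and in 8 above (49.8% and 50.2% of all genes), with a median of -0.10 (0.00 for all genes), and without the libraries of mouse 18 the median was -0.05 and the count 20.

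The libraries of the KO mouse 18 held many extreme values of these genes. Over the whole table its kidney had the widest spread of the kidneys, while its liver lay within the range of the other livers. Over all genes tested, the interquartile range of log2 deviations from the group mean was 0.416 in its kidney and 0.185 to 0.384 in the others, and 0.406 in its liver and 0.248 to 0.417 in the others. Its kidney was the lowest of 10 kidneys in 17 of the 32 members, against 22.4% of all genes, and the highest in 6, against 20.6%. Its liver was the highest of 9 livers in 16 members, against 18.9% of all genes, and the lowest in 4, against 17.1%. In kidney the 3 ligase genes and Fh1 were lowest there, with Sucla2 at 103 CPM against 152 to 170 CPM in the other KO kidneys and 149 to 180 CPM in WT kidneys, and Suclg2 at 234 CPM against 306 to 326 CPM and 298 to 322 CPM. Suclg1 held 261, 252, 280, 283 and 349 CPM in KO livers and 303, 308, 274 and 251 CPM in WT livers, and mouse 18 was the highest of all. In its liver Sdhd reached 544 CPM and Mpc2 518 CPM, above 319 to 430 CPM and 298 to 410 CPM in the other KO livers. Other libraries were skewed in the members too. The liver of the KO mouse 14 was lowest in 13 members, against 9.63% of all genes. The kidney of the WT mouse 19 was highest in 12 members, against 9.78% of all genes. Deviations from the group mean also followed transcript length in many libraries. Over all genes of a tissue the Spearman correlation with length ran from -0.36 to 0.48 between libraries, as a description of genes that share a library, and was -0.19 for the kidney and -0.36 for the liver of mouse 18. Their part in the members' values was not tested.

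**Figure D5:**
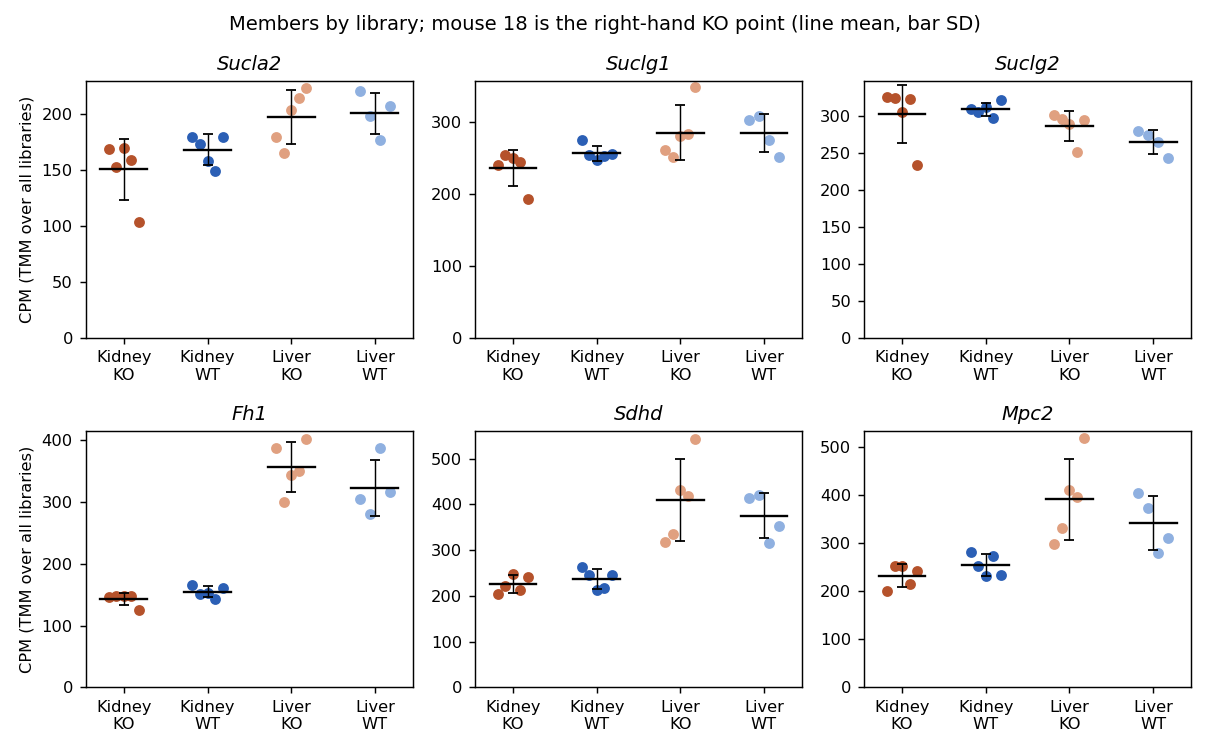
Levels of 6 members (y axes, CPM after TMM over all libraries) by group (x axis), chosen after the values were seen; points are libraries in the order of mouse numbers, so that mouse 18 is the right-hand point of each KO group, lines are means and bars SD. The kidney of mouse 18 is lowest for Sucla2, Suclg1, Suclg2 and Fh1, and its liver is highest for Sucla2, Suclg1, Fh1, Sdhd and Mpc2.

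Kidney and liver values of a mouse were compared by the number in the titles. Over the 9 mice with both organs, the correlation of kidney with liver deviations from the group mean was above 0 in 17 of 32 members and in 70.8% of 13847 genes, with medians of 0.11 and 0.26. The highest was that of Sdhd (Pearson r = 0.75, exact permutation within genotype p = 0.0344, adjusted p = 0.433, Spearman rho = 0.73 with exact p = 0.0458 and adjusted p = 0.548), followed by Mdh1 (r = 0.70, exact p = 0.0944, adjusted p = 0.525, rho = 0.55 with exact p = 0.203) and Pdhb (r = 0.68, exact p = 0.0826, adjusted p = 0.512, rho = 0.73 with exact p = 0.0608). Without the 2 mice farthest from the median in kidney, r was 0.52, 0.43 and 0.54 in this order of genes. An exact p under 0.05 was found for 2 members (Sdhd and, with r = -0.71, Mpc1), against 10.7% of all genes. With library totals r was 0.77 for Sdhd, 0.48 for Mdh1 and 0.44 for Pdhb, and -0.04 for Mpc1. No gene passed the adjustment over all 13847 genes, and the smallest p the 2880 arrangements allow is 0.000347.

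Genes that feed, carry or assemble the same machinery were read from 5 lists of 74 genes, and 0 of them were called in KO against WT in kidney, in liver or in the difference. Between tissues the lists were called as follows, where 41.9% of all genes were called higher and 32.8% lower in KO mice, and 40.2% and 31.7% in WT mice. Of the 13 genes for lipoic acid attachment and assembly of succinate dehydrogenase, 1 was called higher in kidney and 9 lower in each genotype under TMM, among them the lipoyltransferase gene Lipt1 (-1.37 in KO, -1.21 in WT mice). With library totals that list turned to 7 higher and 2 lower in KO mice and 8 and 1 in WT mice, while Lipt1 stayed lower (-0.44 and -0.33). Of the 10 mitochondrial carrier genes, 6 were called higher and 4 lower in KO mice, and 5 and 4 in WT mice. The ADP/ATP carrier Slc25a4 was at 198 ± 30.8 CPM in KO kidneys and 9.32 ± 1.55 CPM in KO livers, and 214 ± 10.5 CPM in WT kidneys and 8.76 ± 2.11 CPM in WT livers, and the glutamate carrier Slc25a22 went the other way (-4.09 in KO and -3.97 in WT mice). Of 22 anaplerosis and carbon entry genes 10 were called higher and 12 lower in KO mice, and 9 and 12 in WT mice, and of 11 related dehydrogenase genes 4 and 6 in KO mice and 4 and 5 in WT mice. With library totals the related dehydrogenases were called 9 higher and 2 lower in KO mice and 8 and 2 in WT mice. Of the 18 genes that respond to nutrients and hormones, 6 were called higher and 7 lower in each genotype.

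In the KO against WT contrasts, the genes with the smallest p of each list stayed short of the threshold. In kidney they included Gls2 (1.01) and Pck2 (0.16) for carbon entry, Lipt1 (-0.21) for lipoylation, Slc25a5 (-0.15) and Slc25a13 (-0.14) for the carriers, and Dhtkd1 (0.10) and Dbt (-0.07) for the related dehydrogenases, each as a log2 fold change with an edgeR adjusted p of 0.999. Gls2 was barely counted there, at no more than 0.635 CPM in any kidney. In liver they included Pck1 (0.68) and Got1 (0.54) for carbon entry, Lias (0.09) for lipoylation, Slc25a12 (-0.15) and Slc25a5 (-0.07) for the carriers, and Bckdk (-0.19) and Dbt (0.11) for the related dehydrogenases, each with an adjusted p of 0.9998. Among the 18 genes that respond to nutrients and hormones, Txnip, an inhibitor of thioredoxin and of glucose uptake, came nearest in kidney. It held 431, 319, 304, 375 and 346 CPM in KO kidneys and 266, 251, 251, 242 and 274 CPM in WT kidneys. All KO kidneys lay above all WT kidneys, which holds for 0.261% of all genes, and the difference was 0.48 on the log2 scale (SE 0.10, edgeR adjusted p = 0.258). In kidney 9 of the 17 genes tested were above 0 (52.2% of all genes) and 8 below. In liver 16 of 18 were above 0 (51.3% of all genes) and 4 had an unadjusted p under 0.05 (4.17% of all genes), with 0 called. Tsc22d3, a glucocorticoid-induced gene, held 137, 112, 261, 222 and 262 CPM in KO livers and 77.8, 108, 74.9 and 97.5 CPM in WT livers. All KO livers lay above all WT livers, which holds for 0.747% of all genes, and the difference was 1.15 (SE 0.25, edgeR adjusted p = 0.522). The clock gene Per1 followed with 2.16 (SE 0.63, adjusted p = 0.952) and overlapping libraries. Angptl4 (1.29, edgeR unadjusted p = 0.0232) and Txnip (0.55, unadjusted p = 0.0265) were also higher in KO livers, each with overlapping libraries and an adjusted p of 0.9998. Tsc22d3 was higher in KO kidneys too, by 0.53 (edgeR unadjusted p = 0.00868, adjusted p = 0.999), with overlapping libraries.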

How the data were processed

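RNA of 10 kidneys and 9 livers was analysed from 1 deposited table of raw read counts per gene, without normalization, in 19 libraries. Its genes each reach 10 counts or more in all. The submitters' processing notes name the tools used before deposit: Trim Galore, STAR, featureCounts and DESeq2, with the build GRCm38. Versions and strand setting are not given in the sources used here. Without the strand setting, reads of genes that overlap on opposite strands cannot be told apart. Of the 26506 gene identifiers, 26417 matched GENCODE M21 (GRCm38), which gave symbols, positions and exon lengths, and 89 did not.

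Genotypes were compared per tissue in edgeR 4.0.16 by its quasi-likelihood F test (R 4.3.3; TMM, robust, filterByExpr with a minimum count of 10), two-sided, adjusted by Benjamini-Hochberg over the 17269 genes of kidney and 14591 of liver, at 0.05. Contrasts between tissues came from 1 fit of all 4 groups over 18549 genes. Alternatives used DESeq2 1.42.0, limma 3.58.1, other scalings and filters, and left out mice. The fits were tested on simulated data with known changes. Of 1.5-fold changes, 58.2% were recovered in kidney, 20.9% in liver and 5.97% for the difference in KO effect. Of 2-fold changes, 77.6%, 73.1% and 37.3% were recovered, and false calls numbered 10, 8 and 2 in this order. Intervals are 95% and SE come from the F statistic. Within groups, no 2 libraries agreed within sampling noise. Members were estimated with a median SE (log2) of 0.09 for kidney and 0.11 for liver.

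The members, lists and tests were chosen with earlier results of these data known. By rule, every library's value is given for Pdk4, the 3 members with the smallest p in each KO contrast, the 4 most positive and 4 most negative between tissues in WT mice among those called, and the 3 with the highest correlation between organs. Map3k15, the 2 carriers and the ratios Pdha1 to Pdhb, Idh3a and Idh3g to Idh3b, and Pdk1 to Pdk2 were chosen after values were seen. Promoter windows come from RefSeq. Values of some genes outside the 32 are not reported here.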

Additional observations from a re-analysis of the deposited data

Results flagged for a closer look

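A sample far from the others of its group was looked for in every member and group, and 11 of 128 groups held one. For a single group chance gives this about 1 time in 20. Members measured in the same library are not independent, so the count of 11 is a description and was not tested against chance. Of these, 4 were in the kidney of the KO mouse 18, which was lowest for Sucla2 (103 CPM, next 152 CPM), Suclg1 (193 CPM, next 240 CPM), Suclg2 (234 CPM, next 306 CPM) and Fh1 (124 CPM, next 146 CPM). The liver of the same mouse was highest among KO livers for Mpc1 (106 CPM, next 91.7 CPM).

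Among the other KO kidneys, mouse 14 was lowest for Dlst (257 CPM, next 284 CPM) and mouse 13 highest for Pdk4 (81.9 CPM, next 42.8 CPM). Among KO livers, mouse 13 was highest for Pdp2 (76.0 CPM, next 41.0 CPM) and mouse 16 lowest for Suclg2 (251 CPM, next 290 CPM). The WT kidney 19 was highest for Sdhb (297 CPM, next 263 CPM) and the WT liver 19 lowest for Mpc1 (77.9 CPM, next 85.6 CPM).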

How the results depend on the processing

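No member was called in KO against WT in kidney, in liver or in their difference under any alternative, although fitted signs of uncalled members changed in 39 kidney, 42 liver and 22 difference values. Over the whole table, the kidney count of 1 gene was 4 with no filter, 12 without mice 16 and 24, 3 with all groups in 1 fit, 4 with limma voom and 15 with DESeq2. The liver count of 0 was 3, 11, 21, 5 and 42 in the same order, and the difference count of 0 was 4 without mice 16 and 24 and 8 with DESeq2. Leaving out 1 mouse gave 1 to 10 genes in kidney, 0 to 7 in liver and 0 to 3 for the difference. The highest count each time was without mouse 16. Without mouse 24 the counts were 7 in kidney, 5 in liver and 1 for the difference.

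Library totals moved the contrasts between tissues. In KO mice 27 members were then called higher and 2 lower, with a median of 0.96, and in WT mice 28 and 1, with a median of 1.06. Signs turned in KO mice for Idh1 (0.18), Sucla2 (0.54), Suclg1 (0.66), Sdhb (0.60), Sdhd (0.075), Pdhb (0.27), Pdhx (0.34) and Mpc2 (0.19), and in WT mice for Idh1 (0.27), Sdhb (0.60), Sdhd (0.22), Pdhb (0.13), Pdhx (0.54) and Mpc2 (0.46). Leaving out 1 mouse gave 12 to 14 higher and 9 to 11 lower in KO mice and 11 to 15 higher and 6 to 9 lower in WT mice. The cause was not tested.

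Same-numbered kidneys and livers deviated together with correlations of 0.0838 to 0.416 over 9 pairs, 7 above 0.1, and 4 kidneys correlated best with the liver of their own number, so the pairing was not established. With the mouse number as a replicate block in limma voom, 7 genes were called in kidney and 5 in liver, and members called between tissues were 14 higher and 11 lower in KO mice and 15 and 8 in WT mice. With the block in edgeR, the WT calls of Suclg2 (0.24, adjusted p = 0.0556) and Mpc1 (0.19, adjusted p = 0.0830) between tissues were not past the threshold.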
